A study of Mus musculus with 7 samples.

Results

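The genes described here encode blood group and red cell surface proteins: Rhag, Rhd, Cd47, Icam4, Kel, Xk, Gypc and Ermap. The 8 genes were chosen by name and looked up in the authors' deposited table of RNA coverage per coding exon. Of these, 6 genes with 25 exons were listed, out of 5194 genes in all, while Rhd and Icam4 had no listed exon and no values. The study compared erythroblasts (Ter119+CD71+) with earlier erythroid progenitors (a pool of Ter119-CD71- and Ter119-CD71+ cells), both sorted from fetal livers of E13.5 mice. All mice carried Klf1 with a hemagglutinin tag, so there was no untagged group, and the cells were primary cells, sorted with antibodies to Ter119, which late erythroid cells carry, and to the transferrin receptor CD71. RNA was sequenced from 2 erythroblast libraries and 1 progenitor library, and EKLF, the factor that Klf1 encodes, was mapped by chromatin immunoprecipitation (ChIP-seq) with 1 library per stage and an input for each.

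The red cell surface carries its blood group antigens on a small number of membrane complexes. The Rh complex is a channel for ammonium and gases built around the Rh-associated glycoprotein, which Rhag encodes. In human cells it also holds the Rh antigen proteins (Rhd is the mouse gene), CD47, which signals to macrophages not to engulf the cell, and ICAM4, which binds integrins. In human cells the Kell protein, a metalloprotease encoded by Kel, is linked to XK, a membrane protein with a role in lipid scrambling. Glycophorin C, encoded by Gypc, ties the membrane to the spectrin skeleton through protein 4.1 and p55, and Ermap encodes an immunoglobulin-type membrane protein that carries the human Scianna antigens. EKLF is an activator of erythroid genes that binds CACCC boxes, and human KLF1 variants are known for weakened blood group antigens.

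Promoter sequences of 5 listed members are shown first because EKLF peaks lay near Xk, Ermap and Cd47. None lay within 30 kb of the listed exons of Rhag or within 50 kb of those of Kel. The sequences come from RefSeq (build GRCm38.p6), run 5′ to 3′ on the strand of the gene, and cover 250 bases before to 50 bases after the annotated start. Capitals mark a CACCC-type word, which was CCACACCC or the word CCACGCCC, or else CCCCACCC or the word CCCCGCCC, and the GATA word AGATAA. Both kinds were searched on both strands.
Xk (chrX:9272534-9272833, plus strand): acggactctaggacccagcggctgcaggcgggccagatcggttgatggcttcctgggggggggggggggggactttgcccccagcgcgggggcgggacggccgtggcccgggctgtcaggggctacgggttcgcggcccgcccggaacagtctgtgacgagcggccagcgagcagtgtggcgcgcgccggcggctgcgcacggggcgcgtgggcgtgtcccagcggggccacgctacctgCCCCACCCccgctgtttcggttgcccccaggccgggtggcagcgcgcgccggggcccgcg
Ermap (chr4:119189946-119190245, minus strand): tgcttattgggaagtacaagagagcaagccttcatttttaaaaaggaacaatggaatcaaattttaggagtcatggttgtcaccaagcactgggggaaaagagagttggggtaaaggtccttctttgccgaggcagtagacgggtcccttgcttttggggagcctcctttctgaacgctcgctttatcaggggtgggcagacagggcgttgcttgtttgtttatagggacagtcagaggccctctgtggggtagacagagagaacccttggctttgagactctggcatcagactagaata
Cd47 (chr16:49855404-49855703, plus strand): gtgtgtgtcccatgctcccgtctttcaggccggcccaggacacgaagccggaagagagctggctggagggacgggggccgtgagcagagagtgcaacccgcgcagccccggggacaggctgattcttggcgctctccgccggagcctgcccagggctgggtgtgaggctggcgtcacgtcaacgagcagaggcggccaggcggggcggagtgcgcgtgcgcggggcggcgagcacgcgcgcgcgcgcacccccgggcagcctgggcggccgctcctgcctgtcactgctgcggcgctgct
Rhag (chr17:40810899-40811198, plus strand): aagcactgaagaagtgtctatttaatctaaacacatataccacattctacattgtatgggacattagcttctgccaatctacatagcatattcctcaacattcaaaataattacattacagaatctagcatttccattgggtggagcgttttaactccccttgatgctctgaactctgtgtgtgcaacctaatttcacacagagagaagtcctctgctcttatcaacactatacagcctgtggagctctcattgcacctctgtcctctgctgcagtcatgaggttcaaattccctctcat
Kel (chr6:41704276-41704575, minus strand): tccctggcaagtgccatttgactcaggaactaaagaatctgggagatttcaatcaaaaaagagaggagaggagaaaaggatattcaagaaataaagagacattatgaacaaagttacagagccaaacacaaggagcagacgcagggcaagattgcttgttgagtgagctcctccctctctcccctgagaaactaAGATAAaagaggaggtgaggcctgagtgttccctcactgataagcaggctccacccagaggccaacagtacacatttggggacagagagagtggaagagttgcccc
Of the 5 promoters shown, Xk held 1 CACCC-type word, CCCCACCC at positions -10 to -3 from the annotated start, and Kel held 1 GATA word at positions -56 to -51. Ermap, Cd47 and Rhag held neither word in these windows. AGATAA was the only GATA word searched, so other GATA forms in these sequences were not counted. CACCC boxes with other flanking letters were not counted either. The letters CACCC alone occur in the Kel and Cd47 sequences, and on the opposite strand in those of Ermap and Rhag. How common these shorter letters are among all promoters was not counted, so the counts here do not mean that a promoter lacks a CACCC box. Rhd and Icam4, which had no expression values, each held CCACGCCC on the opposite strand and 1 GATA word. Gypc had no entry in the table used. A CACCC-type word was present in 30.0% of 27025 promoters of the same length and the GATA word in 11.4%. Among the 4280 promoters of genes in the exon table the shares were 48.0% and 5.61%. A match is a description of these letters only, and binding at it was not tested. The wider pattern CCNCNCCC was searched first and then narrowed after its matches were seen, since it was present in 49.1% of promoters and 10 of its 13 matches in Xk lay in the run of G. The peaks described further on are in build mm9 and were not placed on these sequences.

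Values are the authors' coverage signal per coding exon, with no exon length divided out, so a value is compared for the same gene or exon between stages and never between genes. An exon was listed only where both stages reached 0.8. Differences are log2((erythroblasts + 1) / (progenitors + 1)) of the signal summed over listed exons, and a gene is said to have risen or fallen where it differed at least 2-fold on that scale. The table has 1 column per stage, so no difference has a replicate check, and no p-value is given. In such bulk samples a lower share of expressing cells and less RNA per cell cannot be told apart.

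Of the 6 listed members, 5 rose in erythroblasts, against 15.3% of all 5194 genes, and none fell, against 13.2% of all genes. The 5 were Kel, Gypc, Rhag, Ermap and Cd47, and Xk was lower without passing the rule. The median difference was 1.20 on the log2 scale, against 0.03 over all genes. Among single exons, 21 of 25 were higher in erythroblasts and 17 were at least 2-fold higher in the plain ratio, against 53.4% and 21.7% of all 22385 exons kept. Markers of the sort and of other cells were checked. Tfrc, which encodes CD71, had 148 in erythroblasts and 21.3 in progenitors, and Klf1 had 145 in erythroblasts and 73.9 in progenitors. No hepatocyte, macrophage, granulocyte, mast cell, lymphoid, endothelial or stromal marker on the lists was listed in the table, and of 6 megakaryocyte markers 1 was, Gp1ba, with 31.6 in erythroblasts and 9.35 in progenitors. Its part in the results was not tested.

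**Figure D1:**
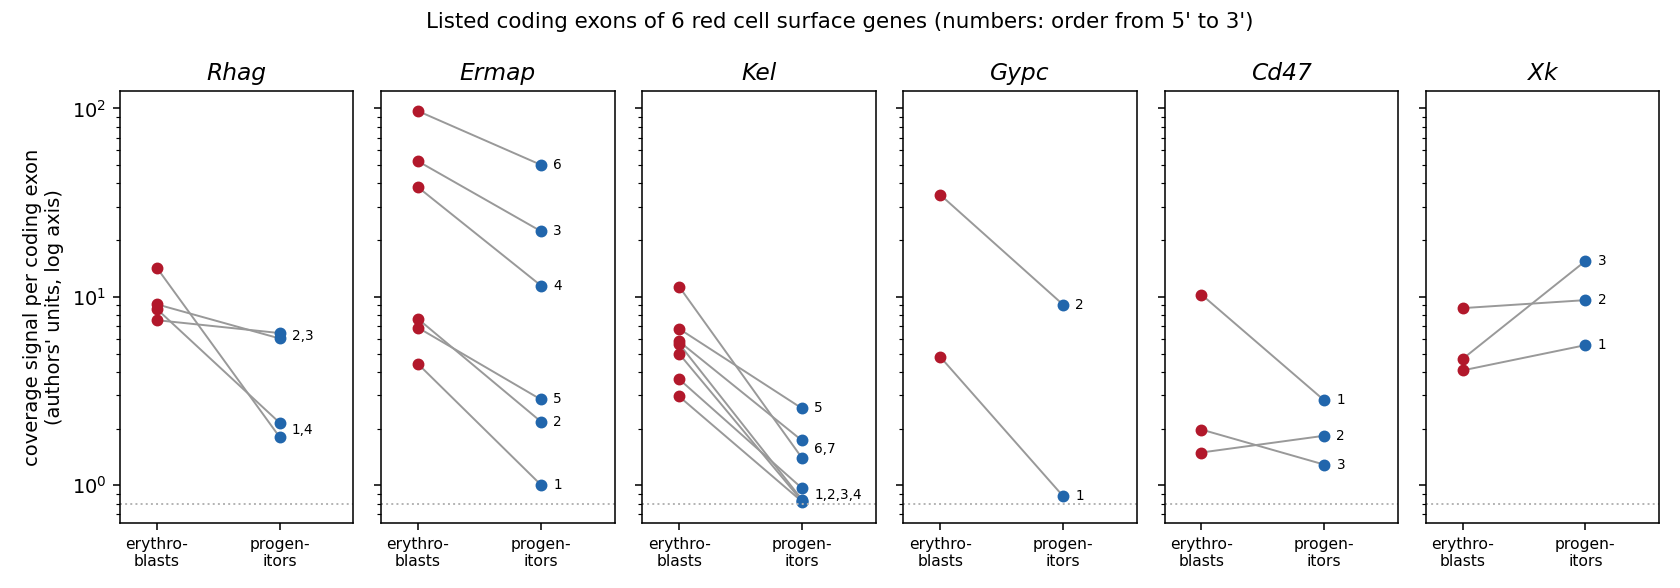
Coverage signal of each listed coding exon (log axis, authors' units) in erythroblasts (left, red) and progenitors (right, blue), with a line per exon and its order from the 5′ to the 3′ end. The dotted line is the lowest listed value of 0.8, and all exons of Rhag, Ermap, Kel and Gypc were higher in erythroblasts while all 3 exons of Xk were lower.

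Rhag, the core of the Rh complex, had a summed signal of 39.5 in erythroblasts and 16.4 in progenitors, a log2 difference of 1.22. From the 5′ end its 4 listed exons had 14.2, 9.13, 7.52 and 8.61 in erythroblasts, against 1.80, 6.01, 6.42 and 2.14 in progenitors. All 4 were higher in erythroblasts, but the outer exons rose 7.92-fold and 4.02-fold and the middle ones differed 1.52-fold and 1.17-fold. The spread between these exons was wide, since only 10.7% of 2746 genes with at least 3 listed exons had a wider range of exon differences. The call rested on the first listed exon, as the difference without it was 0.75.

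Cd47, the macrophage signal, had 13.8 in erythroblasts and 5.94 in progenitors, a log2 difference of 1.09. From the 5′ end its 3 listed exons had 10.3, 1.49 and 1.98 in erythroblasts, against 2.82, 1.83 and 1.29 in progenitors. The first listed exon was 3.64-fold higher and carried 74.8% of the erythroblast signal, while the other exons were at 0.81 and 1.53 times their progenitor values. Without the first exon the difference was 0.12, and by the median of the exon log2 differences it was 0.38, both under the rule. The Cd47 rise is therefore the least firm of the 5. It also missed the rule with a pseudocount of 5 in place of 1, at 0.78.

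Kel, the Kell protease gene, had the largest difference of the members, with 41.1 in erythroblasts and 9.13 in progenitors, a log2 difference of 2.06 that ranked 157 of 5194 genes from the top. Its 7 listed exons, which are not replicates, ran from 2.96 to 11.3 in erythroblasts, against 0.82 to 2.56 in progenitors. Each exon was higher in erythroblasts, by 2.64-fold to 8.10-fold. In progenitors 4 of the 7 exons were under 1, close to the listing limit, against 5.97% of all exons. The highest listed exon number of the transcript was 13 counted from 0, so at least 7 further exons were not listed. Whether they fell under the limit in progenitors was not analysed here. Number 13 is the 5′-most listed exon, and whether coding exons lie further 5′ was not analysed either. If 1 step of the signal is 1 base, the lowest progenitor exon of Kel stands for 29.5 reads of 51 bp.

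Xk, whose protein is joined to Kell in human red cells, went the other way, with 17.5 in erythroblasts and 30.6 in progenitors, which gave a log2 difference of -0.78. This was under the rule. Its 3 exons, in order from the 5′ end, had 4.07, 8.71 and 4.68 in erythroblasts, against 5.54, 9.61 and 15.5 in progenitors. The third exon was at 0.30 of its progenitor value, and the first and second were at 0.73 and 0.91. In progenitors the third exon held 50.5% of the gene's signal, against 26.8% in erythroblasts. Leaving out the second exon took the difference to -1.18, past the rule, and leaving out the third took it to -0.23.

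Gypc, the glycophorin C gene, had 39.6 in erythroblasts and 9.96 in progenitors, a log2 difference of 1.89. Its 5′ listed exon had 4.80 in erythroblasts and 0.88 in progenitors, and its 3′ listed exon had 34.8 in erythroblasts and 9.09 in progenitors. The 2 exons were 5.48-fold and 3.83-fold higher, so both moved by a like amount, and the share of the signal on the 3′ exon was 87.9% in erythroblasts and 91.2% in progenitors.

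Ermap, the Scianna antigen gene, had 206 in erythroblasts and 90.02 in progenitors, a log2 difference of 1.19. The SD between its 6 exons, which are not replicates, was 0.27. From the 5′ end the exons had 4.40, 7.63, 52.4, 38.1, 6.86 and 96.8 in erythroblasts, against 1.01, 2.18, 22.3, 11.5, 2.85 and 50.2 in progenitors. All 6 were higher, by 1.93-fold to 4.37-fold, and the best covered one at the 3′ end had the lowest ratio. Of the genes with at least 3 exons 81.8% had a wider range of exon differences, so Ermap was among the more even ones.

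**Figure D2:**
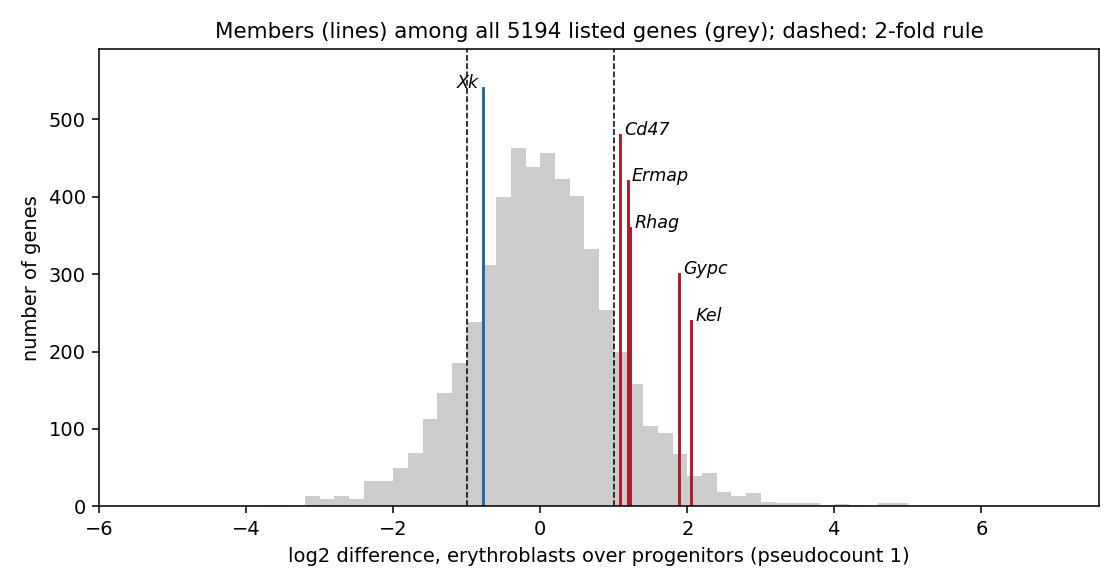
Histogram of the log2 difference, erythroblasts over progenitors, of all 5194 genes (grey), with each listed member as a line (red above 0, blue below) and the 2-fold rule as dashed lines. The members' lines stand at -0.78 (Xk), 1.09 (Cd47), 1.19 (Ermap), 1.22 (Rhag), 1.89 (Gypc) and 2.06 (Kel), and line heights carry no value.

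Exons of a gene going opposite ways were common in the table. Of 2746 genes with at least 3 listed exons 61.4% had exons on both sides, and 23.3% had all exons higher in erythroblasts, as Rhag, Kel and Ermap did. The 3′ exon minus the 5′ exon had a median of -0.02 on the log2 scale over those genes, and 51.5% of them had the lower value at the 3′ exon. Members with at least 3 exons went both ways, with -1.18 for Cd47, -1.17 for Xk, -0.83 for Rhag, -0.50 for Ermap and 1.12 for Kel.

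Genes related to the members by role were listed less completely. Of 26 other blood group carrier genes 9 had listed exons. Of these 3 rose, 1 fell and 5 were under the rule, and the median log2 difference was 0.21. Abcb6, a transporter linked to porphyrins that carries the human Langereis antigen, had 90.8 in erythroblasts and 16.3 in progenitors, with all 8 exons higher. Smim1, which carries the Vel antigen, had 85.7 in erythroblasts and 17.7 in progenitors. Art4, which carries the Dombrock antigens, had 4.68 in erythroblasts and 1.11 in progenitors on 1 exon, and missed the rule with a pseudocount of 5, at 0.66. Piezo1, a mechanically gated channel, was the one that fell, with 54.01 in erythroblasts and 166 in progenitors and all 30 exons lower. Bsg (basigin) had 218 in erythroblasts and 117 in progenitors, and Prnp (the prion protein) had 44.4 in erythroblasts and 65.1 in progenitors, both under the rule.

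Of 11 genes examined for the skeleton and its anchors 7 were listed. All 7 rose, against 15.3% of all genes, with a median log2 difference of 2.22. Of these, 6 rose under all 8 alternative settings, and Epb41 under 3 of the 8. Ank1, the ankyrin that anchors the Rh complex and band 3, had a difference of 3.15. The adducin gene Add2 had 2.97, the spectrin gene Sptb had 2.96 and the adducin gene Add1 had 2.22. The partners of glycophorin C, named for that role after their values were seen, had smaller differences. Mpp1, which encodes p55, had 12.5 in erythroblasts and 3.37 in progenitors on 1 exon, a log2 difference of 1.63. Epb41, which encodes protein 4.1, had 288 in erythroblasts and 142 in progenitors, a log2 difference of 1.01, with 10 of 12 exons higher. It lies at the edge of the rule, and its difference ran from 0.95 to 1.02 over the alternatives. Stom, the stomatin gene, had a difference of 1.77. Several of these genes were already known to rise in these data when the list was made, so the count is not independent support.

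Of 14 adhesion genes of erythroblastic islands, where erythroblasts mature around a macrophage, 3 were listed. Itga4, the integrin alpha4 gene, fell, with 2.45 in erythroblasts and 7.33 in progenitors and all 3 exons lower, but missed the rule with a pseudocount of 5 and by the exon median. Itgb1, its beta1 partner, had 17.4 in erythroblasts and 8.24 in progenitors, just under the rule, with 2 of 4 exons higher. Maea, the erythroblast macrophage protein gene, had 48.8 in erythroblasts and 72.2 in progenitors. None of the 9 blood group glycosyltransferase genes and none of the 17 paralogs of the members, such as Rhbg, Xkr8, Icam1 and Ece1, was listed.

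**Figure D3:**
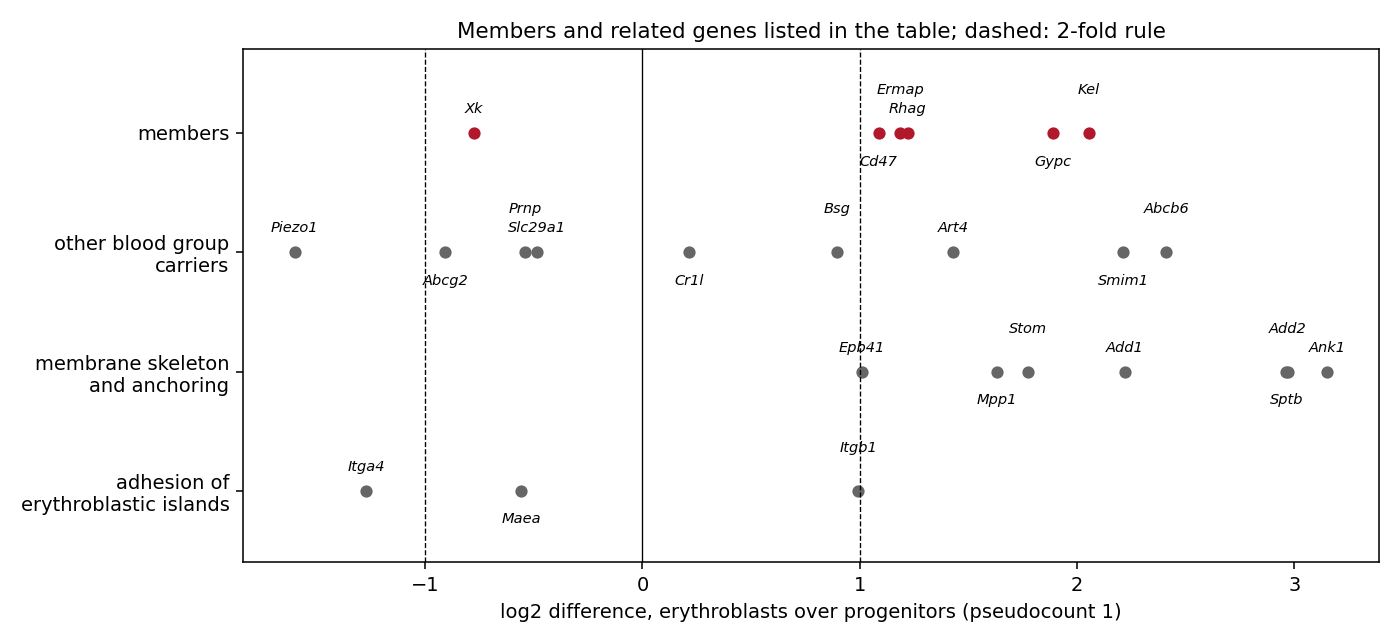
Log2 difference, erythroblasts over progenitors, of the 6 listed members (red) and of listed related genes (grey), 1 point per gene, with the 2-fold rule as dashed lines. All 7 membrane skeleton genes lie past the rule on the right, from 1.01 to 3.15, of which Epb41 at 1.01 missed it under 5 of 8 alternative settings, while other blood group carriers lie from -1.60 to 2.41.

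EKLF peaks near the members were then examined in the pooled peak list of each stage. Within 50 kb of listed exons, 5 of 6 members had an erythroblast peak, against 88.0% of all genes, and 3 of 6 had a progenitor peak, against 70.1%. Peaks of both lists were found at Gypc, Ermap and Cd47, against 67.5% of all genes, erythroblast peaks alone at Xk and Rhag, against 20.5%, and neither at Kel, against 9.41%. An erythroblast peak covered a listed exon position at 2 members, Xk and Gypc, against 23.4% of all genes, and Gypc and Ermap had 3 or more erythroblast peaks, against 34.4%. These counts are near those of all genes, and nothing particular to the members is read from them. The 13 erythroblast peaks were 10 that no progenitor peak overlapped and 3 shared by at least 1 bp, and all 3 progenitor peaks were shared. Positions are in build mm9, enrichments are the authors' fold enrichment of a peak, read within 1 list, and their median was 9.31 in erythroblasts and 7.03 in progenitors.

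**Figure D4:**
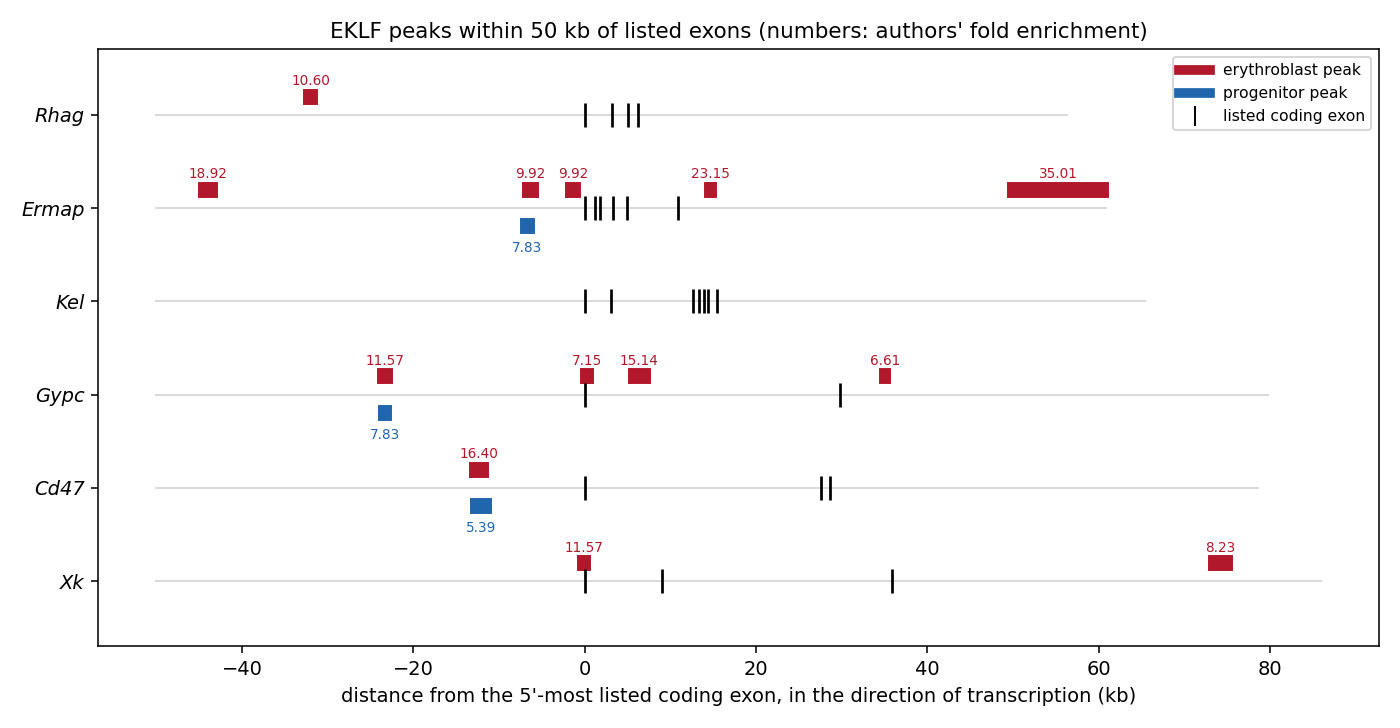
EKLF peaks of erythroblasts (red, above the line) and progenitors (blue, below) within 50 kb of the listed exons (black ticks) of each member, by distance in kb from the 5′-most listed exon in the direction of transcription, with the authors' fold enrichment as numbers. Xk and Gypc have an erythroblast peak over their 5′-most listed exon, and Kel has none of either list.

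At Xk an erythroblast peak on chromosome X from 8849317 to 8850715 covered the first coding exon, with an enrichment of 11.57, and no progenitor peak lay within 50 kb. The nearest progenitor peak was 200 kb away. A second erythroblast peak, from 8922995 to 8925677 with an enrichment of 8.23, lay 37.0 kb downstream of the last listed exon. Xk was the member whose RNA signal was lower in erythroblasts.

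Gypc had 4 erythroblast peaks on chromosome 18, of which 1, from 32718493 to 32719904, covered its 5′ listed exon with an enrichment of 7.15. The strongest, from 32711864 to 32714219, had an enrichment of 15.14 and lay between the 2 listed exons, 5.22 kb from the nearer one. The peak 22.5 kb upstream, from 32741892 to 32743555 with an enrichment of 11.57, was the shared one. Its progenitor counterpart, from 32742018 to 32743425, had an enrichment of 7.83 and lay wholly inside it. The remaining peak, 4.69 kb downstream of the listed exons, had 6.61.

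Ermap had 5 erythroblast peaks on chromosome 4. The nearest, from 118861990 to 118863624, lay 0.53 kb upstream of the 5′-most listed exon with an enrichment of 9.92, and another, from 118846080 to 118847440, lay 3.18 kb downstream of the last listed exon with 23.15, higher than 97.8% of that list. Neither was in the progenitor list. The shared peak, from 118866953 to 118868673 in erythroblasts and from 118867373 to 118868907 in progenitors, covered a listed exon of the neighbour Svbp. The widest peak, 11.8 kb from 118800319 to 118812086, had an enrichment of 35.01 and ranked 62 of 19353, but it covered an exon of Slc2a1, a glucose transporter gene, and lay 38.5 kb from Ermap. The fifth, from 118904403 to 118906483 with 18.92, was nearest to AU022252.

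Cd47 had 1 peak in each list, on chromosome 16 from 49854435 to 49856638 in erythroblasts and from 49854655 to 49856967 in progenitors, which shared 1984 bp. The erythroblast peak had an enrichment of 16.4 and ranked 930 of 19353, while the progenitor peak had 5.39 and ranked 5644 of 7358. Both lay about 11 kb upstream of the first listed exon, and exon 0 of this transcript was not listed, so their distance to the 5′ end of the gene was not measured. Rhag had 1 erythroblast peak, on chromosome 17 from 40932565 to 40934075, with an enrichment of 10.6, 31.2 kb upstream of its listed exons. Exon 0 of the Rhag transcript was not listed either, so the distance of this peak to the 5′ end of the gene was not measured. The nearest progenitor peak to Rhag was 136 kb away. For Kel, the member that rose most, the nearest erythroblast peak was 105 kb from the listed exons on chromosome 6 and the nearest progenitor peak 176 kb. The distance of these peaks to the 5′ end of Kel was not measured.

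Over the 6 members the signal and the peaks did not run together in a simple order. Of the 5 that rose, Gypc, Ermap and Cd47 had peaks in both lists. Rhag had an erythroblast peak only beyond 30 kb of its listed exons, and Kel had none within 50 kb of its listed exons. With 6 members and 1 list per stage no relation between peaks and RNA was tested.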

How the data were processed

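The members and all gene lists were chosen with earlier results of these data known. The labels name E13.5 fetal liver cells, 3 RNA, 2 ChIP and 2 input libraries, at least 3 independent sorts per population, paired reads of 51 bp and ChIP fragments of about 200 bp. The submitters' processing notes name build mm9, while no aligner, peak caller or read counter was named there.

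The authors' deposited exon table is named as RPKM but holds a coverage signal: each column is made of whole steps (100% of values within 0.01 of one), with 2151 steps per unit in erythroblasts and 1835 in progenitors. The lowest values stand for 1721 and 1468 steps, or 33.7 and 28.8 reads if a step is 1 base. Nothing used here says whether the erythroblast column pools both libraries, and values therefore stand without SD or n. The authors' peak lists give a fold enrichment (never below 2.14) and a -log10 p (never below 5) per peak, read as such from their values. The last deposited column, another number, was not used.

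RefSeq accessions were matched to symbols in the GRCm38.p6 table (6772 of 6853 transcripts). The transcript with the most listed exons was kept per gene, giving 5194 items with at least 1 in a column. One item is not reported here. Genes named are the members and, per related list, up to 4 past the rule and 2 others. Beyond that rule, the skeleton genes Mpp1, Epb41 and Stom were named after their values were seen. Peak ranks follow the -log10 p, then the enrichment. Distances run from a peak's edge to the listed exon position. Python 3.11.15, pandas 2.3.3 and numpy 2.4.6 were used, and the steps were tested on simulated data. Alternatives were pseudocounts, scalings, exon summaries, filters, fold rules, windows and peak subsets.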

Additional observations from a re-analysis of the deposited data

How the results depend on the processing

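No paired analysis was possible because the deposited table has 1 column per stage, and for the same reason no library could be left out. The differences of Kel, Gypc, Rhag, Ermap and Xk kept their direction and side of the 2-fold rule under all 8 alternative settings, and that of Cd47 under 6, with 0.78 at a pseudocount of 5 and 0.38 by the exon median. Leaving out each exon in turn was added after seeing the data. It ended the calls of Rhag (0.75) and Cd47 (0.12), each without its first listed exon, and took Xk to -1.18 without its second.

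Skeleton genes higher were 6 in place of 7, without Epb41, with a pseudocount of 5, by exon median and under each of the 3 rescalings. A 1.5-fold rule counted 1 member lower and a 3-fold rule 2 higher. A pseudocount of 0.1 gave 2 lower blood group carriers and 1 higher adhesion gene. Adhesion genes lower were 0 with a pseudocount of 5, by exon median and with exons of at least 5 only, where 1 was higher. Members with peaks depended most on the peak set. Within 5 kb it was 3 in the erythroblast list, against 45.9% of all genes, and 0 in the progenitor list, against 30.7%. The higher-ranked 50% of each list gave 4 members with an erythroblast peak alone, against 26.9% of all genes, and 0 with a progenitor peak, against 48.1%. Peaks of at least 10-fold enrichment gave 5, against 51.2%, and 0, against 22.2%. With as many erythroblast as progenitor peaks, 3 members had an erythroblast peak, against 60.6% of all genes, and 0 had one alone, against 8.93%. Nothing particular to the members is read from these counts. Peak counts of single members moved by over 1.5 times in 30 of 84 cases. The listing limit of 0.8 in both stages restricts all values to exons covered in both.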

Other observations

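Of the 6 listed members only Ermap had other listed genes within 50 kb. All 4 of them had a higher signal in erythroblasts. For scale, 53.4% of all single exons kept were higher, and the median log2 difference over all genes was 0.03. The share of genes that were higher was not counted, and nothing particular to the neighbourhood is read from this. Slc2a1, which encodes the glucose transporter GLUT1, was the one past the 2-fold rule, with 144 in erythroblasts and 45.1 in progenitors, a log2 difference of 1.65 against 1.19 for Ermap. Svbp had 36.8 in erythroblasts and 23.3 in progenitors, a log2 difference of 0.64. Zfp691 had 4.96 in erythroblasts and 3.35 in progenitors on 1 exon, and AU022252 had 7.51 in erythroblasts and 5.19 in progenitors, each with a difference of 0.46. The neighbourhood was chosen after its values were seen.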
